A study of Bos taurus with 71 samples.

Results

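The jejunum and the ileum of 21-day-old (D21) Holstein bull calves were compared by RNA-Seq, using the 5 samples labelled mid-jejunum and the 5 samples labelled ileum at that age. These 10 samples were chosen by their labels alone and are 10 of the 71 samples of the series, which also covers the rumen and the ages D0, D7 and D42. The calves were not treated: after colostrum they were fed milk, with calf starter freely available from the third week, so both groups share the same animals, age and diet. A short piece of whole intestine was taken for each region. The jejunum piece came from the upper small intestine, at a fixed distance below the pylorus, and the ileum piece from just before the ileo-cecal fold. The layers of the gut were thus not separated, and whether a jejunum piece held a lymphoid patch is not stated. The samples of one calf carry the same animal number, and calves differed between ages, so 5 calves give each value below an n of 5 per region.

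The 2 regions do different work in a young ruminant. The upper small intestine takes up most of the digested milk: its enterocytes digest peptides and sugars at the brush border, rebuild fat and send it out as lipoproteins. The ileum of the calf carries a long, continuous Peyer's patch in which B cells divide in large numbers and build the early antibody repertoire, whereas the jejunum carries separate smaller patches that take part in IgA responses. IgA made by plasma cells is carried through the epithelium by the polymeric immunoglobulin receptor.

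Values are CPM (read counts scaled to a common library total) that the authors rounded to whole numbers, so 1 is the smallest step and the depth of each library is unknown. A gene was JE-enriched or IL-enriched when its mean log2(CPM + 1) differed between jejunum and ileum by more than 2-fold at FDR below 0.05 (limma with Benjamini-Hochberg adjustment over 13942 tested genes). Differences are given as jejunum minus ileum on that log2 scale with the standard error (SE), so a negative value is higher in the ileum, and genes of low CPM appear less changed than they are. The values of a jejunum sample summed to 977509 to 982685 and those of an ileum sample to 975133 to 978238, and each sample correlated more closely with the other samples of its own region (mean r 0.960 to 0.975 across genes, which are not independent) than with the other region (0.776 to 0.830).

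The labels were checked against genes that mark the 2 ends of the small intestine. All 8 markers of the proximal small intestine were JE-enriched, namely APOA1, APOA4, APOB, APOC3, CCK, GHRL, SLC11A2 and SLC40A1. Of the 4 ileum markers, the bile acid receptor NR1H4 and GCG, which encodes the glucagon-like peptides, were IL-enriched, with NR1H4 at 7, 14, 11, 16 and 16 CPM in the jejunum of calves 1 to 5 and 25, 28, 17, 34 and 33 CPM in their ileum. The other 2, CUBN and AMN, which together form the receptor for intrinsic factor and vitamin B12, went against the label and were JE-enriched. The call of GCG was lost under several settings, given below. APOA1, APOA4, APOB, APOC3 and AMN stand in a leading block of the study's table that holds mostly called genes, described below. The markers were also chosen with earlier results of these data known, so this check is not independent. The B cell markers CD79A, CD79B, MS4A1 and CR2 were higher in every ileum sample than in any jejunum sample. The same held for 28.2% of all tested genes, and the reverse for 17.3%, so groups without overlap were common, here and below.

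Of the 13942 tested genes, 1690 were JE-enriched (12.1%) and 2051 were IL-enriched (14.7%). The difference exceeded 16-fold for 85 of the JE-enriched and 63 of the IL-enriched genes. The median log2 difference over all tested genes was -0.12, and scaling the samples by median ratios raised it by 0.15 to 0.03 and changed the balance of the calls, to 2089 JE-enriched and 1689 IL-enriched, so that 45.2% of the calls were JE-enriched as deposited and 55.3% after scaling. All 1690 JE-enriched genes were also JE-enriched after scaling, and all 1689 IL-enriched genes after scaling were IL-enriched as deposited. Only 1776 of the tested genes could be given a symbol, among them 287 JE-enriched and 287 IL-enriched genes, and the named genes below come from these.

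**Figure D1:**
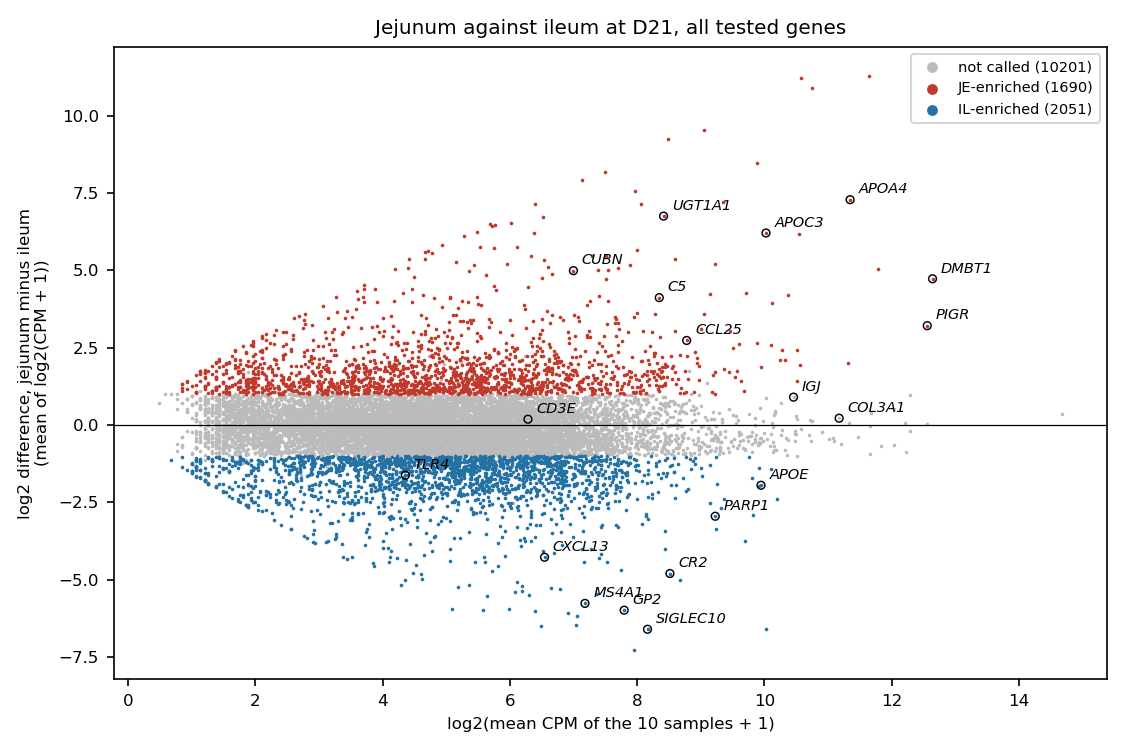
The log2 difference between jejunum and ileum at D21 (vertical axis, mean of log2(CPM + 1)) is plotted against the log2 of the mean CPM of the 10 samples plus 1 (horizontal axis) for all 13942 tested genes. Red points are the 1690 JE-enriched genes, blue points the 2051 IL-enriched genes and grey points the rest, and circles mark genes described in the text, from APOA4 at 7.29 to SIGLEC10 at -6.61.

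The largest positive difference of a gene with a symbol belonged to APOA4, an apolipoprotein of chylomicrons. It was at 4549, 3894, 2118, 7979 and 7286 CPM in the jejunum of calves 1 to 5 and at 90, 18, 21, 17 and 33 CPM in the ileum, a log2 difference of 7.29 (SE 0.46, FDR 1.47e-07). The groups were far apart in every calf. The other nine at this end were TFF2, UGT1A1, APOC2, APOC3, ABCC2, PDX1, CCK, CXCL17 and SOAT2. PDX1, a transcription factor of the proximal gut and pancreas, was at 65, 37, 37, 59 and 53 CPM in the jejunum and was listed at 0 in all 5 ileum samples (FDR 1.77e-09). The largest negative differences belonged to SIGLEC10, VPREB3, GP2, MS4A1, CD79B, CR2, POU2F2, CD22, CD79A and LRMP, of which all but GP2 are known from B cells. Among identifiers that could not be given a symbol, differences were larger still: ENSBTAG00000018054 was at 6966, 5481, 4544, 5752 and 9172 CPM in the jejunum and 1, 2, 0, 2 and 4 CPM in the ileum, and ENSBTAG00000015170 at 1342 to 5423 CPM in the jejunum and at most 1 CPM in the ileum. In the other direction ENSBTAG00000010632 was at 1 to 3 CPM in the jejunum and 169 to 818 CPM in the ileum, and ENSBTAG00000016881 at 8 to 47 CPM against 1153 to 2665 CPM.

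**Figure D2:**
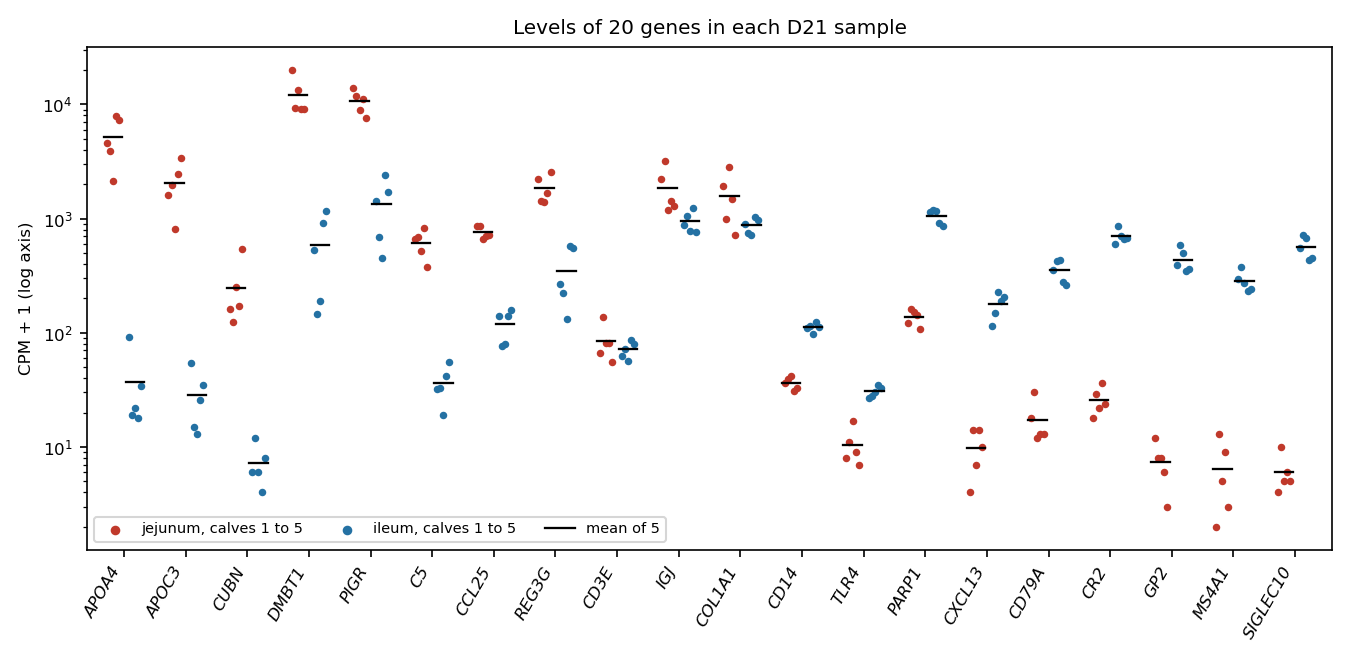
Levels of 20 genes are shown for each D21 sample as CPM + 1 on a log axis, red for the jejunum and blue for the ileum of calves 1 to 5 from left to right, with a black bar at the mean of the 5. APOA4 to REG3G were higher in every jejunum sample and CD14 to SIGLEC10 in every ileum sample, whereas the samples of both regions overlapped for CD3E, IGJ and COL1A1.

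Genes of fat handling by enterocytes were called in both directions. Of 25 tested, 12 were JE-enriched (48%) and 5 IL-enriched (20%), beside 12.1% and 14.7% of all tested genes. The median log2 difference was 0.85 beside -0.12 over all tested genes. The study's table begins with a block of genes of which 59 were JE-enriched and 80 IL-enriched out of 140 tested here, so members named in that block are not independent evidence. Without the 7 such members of this list, 5 JE-enriched and 5 IL-enriched of 18 remained, with a median of 0.57. APOC3, an inhibitor of lipoprotein lipase, was at 1595, 1982, 806, 2456 and 3422 CPM in the jejunum and at 53, 14, 12, 25 and 34 CPM in the ileum. The groups did not overlap and the log2 difference was 6.21 (SE 0.43, FDR 2.69e-07). APOC2, the activator of the same lipase, was at 62, 40, 62, 152 and 202 CPM in the jejunum and listed at 0 in all ileum samples (FDR 8.44e-08), as was the cholesterol-esterifying enzyme SOAT2, which was at 46, 30, 41, 40 and 47 CPM in the jejunum (FDR 1.07e-09). APOA1, the main protein of HDL, stood at 6836 ± 3688 CPM (SD, n = 5) in the jejunum and 205 ± 124 CPM in the ileum, and APOB, the structural protein of chylomicrons, at 2476 ± 1137 and 164 ± 105 CPM. The fatty acid receptor CD36 (286 ± 101 against 16.8 ± 5.81 CPM), glycerol-3-phosphate dehydrogenase GPD1 (237 ± 64.7 against 18.8 ± 4.49 CPM) and the fat-sensing receptor PPARG (31 ± 5.34 against 4.2 ± 1.79 CPM) were also JE-enriched. The jejunum of calves 4 and 5 held the highest summed level of the list, 25348 and 30299 CPM, against 10258 to 15313 CPM in the other three calves and 2871 to 3783 CPM in the ileum.

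The 5 IL-enriched members of the fat list were ABCA1, APOE, LPL, ACSL4 and NR1H4. ABCA1, which exports cholesterol, was at 11, 22, 31, 26 and 47 CPM in the jejunum and 177, 128, 58, 112 and 138 CPM in the ileum (-2.17, SE 0.36, FDR 0.000222). APOE, which macrophages as well as other cells secrete, was at 459, 421, 480, 341 and 301 CPM against 1653, 2170, 1652, 1290 and 1079 CPM (-1.95, SE 0.19, FDR 4.24e-06). Neither gene overlapped between the regions. Lipoprotein lipase, LPL, overlapped, since the jejunum of calf 3 reached 125 CPM where the ileum samples ranged from 72 to 152 CPM.

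Of 36 tested identifiers of brush border and transport genes, 16 were JE-enriched (44.4%) and 2 IL-enriched (5.56%), with a median of 1.06. The shares over all tested genes were 12.1% and 14.7%. Without the 6 members of the leading block, 10 of 30 were JE-enriched and 2 IL-enriched, with a median of 0.62. ABCC2, an export pump of conjugated bilirubin, was at 20, 19, 52, 39 and 549 CPM in the jejunum and listed at 0 throughout the ileum (FDR 2.91e-05), so calf 5 stood more than 10 times above any other calf. UGT1A1, which conjugates bilirubin, behaved alike, with 256, 250, 291, 224 and 2365 CPM in the jejunum and 3, 2, 3, 1 and 6 CPM in the ileum (6.76, SE 0.59, FDR 1.46e-06). CUBN was at 159, 122, 249, 171 and 536 CPM in the jejunum and 5, 11, 5, 3 and 7 CPM in the ileum (4.99, SE 0.38, FDR 5.24e-07), again highest in calf 5. Its partner AMN stood at 167 ± 48.7 CPM in the jejunum and 26.6 ± 8.73 CPM in the ileum.

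Iron and calcium uptake genes were high in the jejunum of every calf. The iron importer SLC11A2 is listed under 2 identifiers, of which the higher was at 616, 184, 162, 780 and 178 CPM in the jejunum and 39, 27, 24, 42 and 47 CPM in the ileum (3.09, SE 0.44, FDR 7e-05). The iron exporter SLC40A1 followed the same calves, with 601, 276, 193, 632 and 370 CPM against 53, 43, 33, 44 and 64 CPM, so calves 1 and 4 were highest for both. TRPV6, the calcium channel of the brush border, was at 39, 18, 25, 43 and 79 CPM against 1 or 2 CPM. The 2 IL-enriched members were the amino acid transporter SLC7A8 (11.4 ± 3.51 against 46.8 ± 20.6 CPM) and the water and glycerol channel AQP3 (9.8 ± 2.39 against 25.6 ± 5.5 CPM). Several identifiers carry the symbol DPP4, a brush border peptidase, and none was called: the higher pair overlapped between the regions, and the jejunum samples of the highest ran from 14 to 165 CPM.

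Epithelial markers moved with these lists. Of 13 tested, 11 were JE-enriched (84.6%, beside 12.1% of all tested genes) and none IL-enriched (median 1.59). On the ileum side 0 reached an unadjusted p below 0.05. EPCAM, the general marker of epithelial cells, was at 1153, 1174, 873, 1138 and 1083 CPM in the jejunum and 286, 281, 243, 670 and 498 CPM in the ileum (1.56, SE 0.25, FDR 0.000199). The summed level of the 13 markers ran from 5527 to 6951 CPM in the jejunum and from 1381 to 3199 CPM in the ileum, where calves 4 and 5 were highest. CDHR2, a cadherin that links microvilli, had the largest difference of this list, 2.24 (SE 0.28). Larger differences than that of CDHR2 were measured for 9 of the 12 JE-enriched fat genes and for 6 of the 16 JE-enriched transport genes. CDHR2 is itself a member of the transport list, so those lists are not separate. In whole tissue, fewer cells of a type and less RNA per cell cannot be told apart, and the part that the epithelial share had in the other lists was not tested.

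Of 12 genes of secretory and crypt cells, 7 were JE-enriched (58.3%) and 3 IL-enriched (25%), beside 12.1% and 14.7% of all tested genes. The median was 1.56, and without the 3 members of the leading block 5 and 2 of 9 were called. TFF2, a trefoil peptide of mucous glands, was at 1478, 170, 576, 428 and 6 CPM in the jejunum and 0, 0, 1, 1 and 1 CPM in the ileum (FDR 0.000156), so its level differed widely among the calves. DMBT1, a secreted protein that binds bacteria, was at 20063, 9328, 13266, 9033 and 9199 CPM in the jejunum and 525, 144, 190, 919 and 1163 CPM in the ileum (4.73, SE 0.54, FDR 1.21e-05). REG3G, an antibacterial lectin, was at 2218, 1438, 1408, 1657 and 2574 CPM against 264, 224, 130, 573 and 552 CPM (2.58, SE 0.37, FDR 8.13e-05). In the ileum, the highest samples of both genes were those of calves 4 and 5. The goblet cell genes FCGBP, AGR2 and SPDEF were JE-enriched as well.

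The IL-enriched genes of this list were GP2, DUOX2 and EPHB3. GP2, a receptor that M cells above Peyer's patches use to take up bacteria, was at 11, 7, 7, 5 and 2 CPM in the jejunum and 388, 587, 495, 346 and 363 CPM in the ileum (-5.99, SE 0.31, FDR 3.55e-08). DUOX2, an oxidase that releases hydrogen peroxide, was low in the jejunum (3, 4, 8, 3 and 6 CPM) and ran from 7 to 595 CPM in the ileum, where calves 4 and 5 (595 and 167 CPM) stood above calves 1 to 3 (12, 35 and 7 CPM). The groups overlapped although the gene was IL-enriched (-3.24, SE 0.98, FDR 0.0123). Among 4 enteroendocrine peptides, CCK was at 43, 31, 118, 40 and 32 CPM and ghrelin, GHRL, at 10, 7, 3, 6 and 3 CPM in the jejunum, and both were listed at 0 in every ileum sample. GCG overlapped between the regions, with 15, 5, 21, 7 and 18 CPM in the jejunum and 31, 19, 17, 41 and 31 CPM in the ileum (-1.12, SE 0.37, FDR 0.0193). Its call was lost after median-ratio scaling, with all ages in 1 fit, with a pseudocount of 5, and without jejunum sample 2 or 4 or ileum sample 4.

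Tight junction genes were JE-enriched in 5 of 11 cases (45.5%, beside 12.1% of all tested genes) and IL-enriched in none (median 0.62). CLDN15, which forms sodium pores, was at 327, 220, 190, 218 and 121 CPM in the jejunum and 23, 24, 23, 22 and 32 CPM in the ileum (3.01, SE 0.22, FDR 3.5e-07). CLDN2, another pore-forming claudin, was at 525, 624, 385, 625 and 560 CPM against 122, 82, 59, 154 and 222 CPM (2.21, SE 0.30, FDR 5.41e-05). Both were separate in every calf. CLDN15 alone had a larger difference than any epithelial marker. The remaining JE-enriched members, CLDN7, CXADR and CGN, lay between 1.04 and 1.65. CLDN3, CLDN7 and CGN are themselves on the list of epithelial markers, so the lists are not separate. CLDN1, CLDN3, CLDN4, CLDN5, CLDN12 and F11R were not called, although at FDR alone 6 of the 11 genes passed on the jejunum side.

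B cell genes were higher in the ileum. Of 30 tested, 27 were IL-enriched (90%, beside 14.7% of all tested genes) and none was JE-enriched. All 30 had a negative difference, with a median of -3.43 beside -0.12 over all tested genes. Without the 15 members of the leading block, 12 of 15 were IL-enriched. SIGLEC10, an inhibitory receptor of B cells, was at 3, 9, 4, 5 and 4 CPM in the jejunum and 553, 721, 670, 434 and 451 CPM in the ileum (-6.61, SE 0.23, FDR 4.14e-09). VPREB3, which is made by developing B cells, was at 1, 6, 2, 4 and 1 CPM against 218, 360, 256, 202 and 151 CPM (-6.10, SE 0.35, FDR 8.06e-08). Calf 2 had the highest level of both genes in both regions. The CD20 gene MS4A1 was at 1, 12, 4, 8 and 2 CPM against 294, 372, 274, 229 and 243 CPM (-5.77, SE 0.43, FDR 4.31e-07).

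The 2 signalling chains of the B cell receptor followed. CD79A was at 17, 29, 11, 12 and 12 CPM in the jejunum and 356, 424, 436, 280 and 261 CPM in the ileum (-4.42, SE 0.25, FDR 6.74e-08), and CD79B at 4, 9, 5, 11 and 4 CPM against 346, 390, 399, 238 and 241 CPM (-5.48, SE 0.27, FDR 2.67e-08). In the ileum calves 1 to 3 were above calves 4 and 5 for both chains. The complement receptor CR2, which B cells and follicular dendritic cells carry, was at 17, 28, 21, 35 and 23 CPM against 603, 868, 707, 664 and 680 CPM (-4.80, SE 0.17, FDR 4.46e-09). BCL6, the master regulator of germinal centre B cells, stood at 15.4 ± 4.1 CPM in the jejunum and 262 ± 53.6 CPM in the ileum, and TCF3 at 37.8 ± 7.05 and 366 ± 71.4 CPM.

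The 3 members that were not called include the immunoglobulin genes themselves. IGHM, the heavy chain of IgM, was at 2650, 5270, 1824, 1607 and 3340 CPM in the jejunum and 4634, 5415, 4268, 3999 and 3524 CPM in the ileum (-0.69, SE 0.29, FDR 0.0548). IGLL1, a light chain gene whose reads may be shared with related genes, was at 4030, 5544, 2375, 2131 and 2312 CPM against 3185, 3498, 3447, 3422 and 2262 CPM (-0.04, SE 0.27, FDR 0.914). The samples overlapped for both, and the jejunum of calf 2 was the highest of the 5 jejunum samples for both. IRF8, a transcription factor of B cells and myeloid cells, passed the FDR but not the 2-fold limit (208 ± 24.7 against 340 ± 21.6 CPM).

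**Figure D3:**
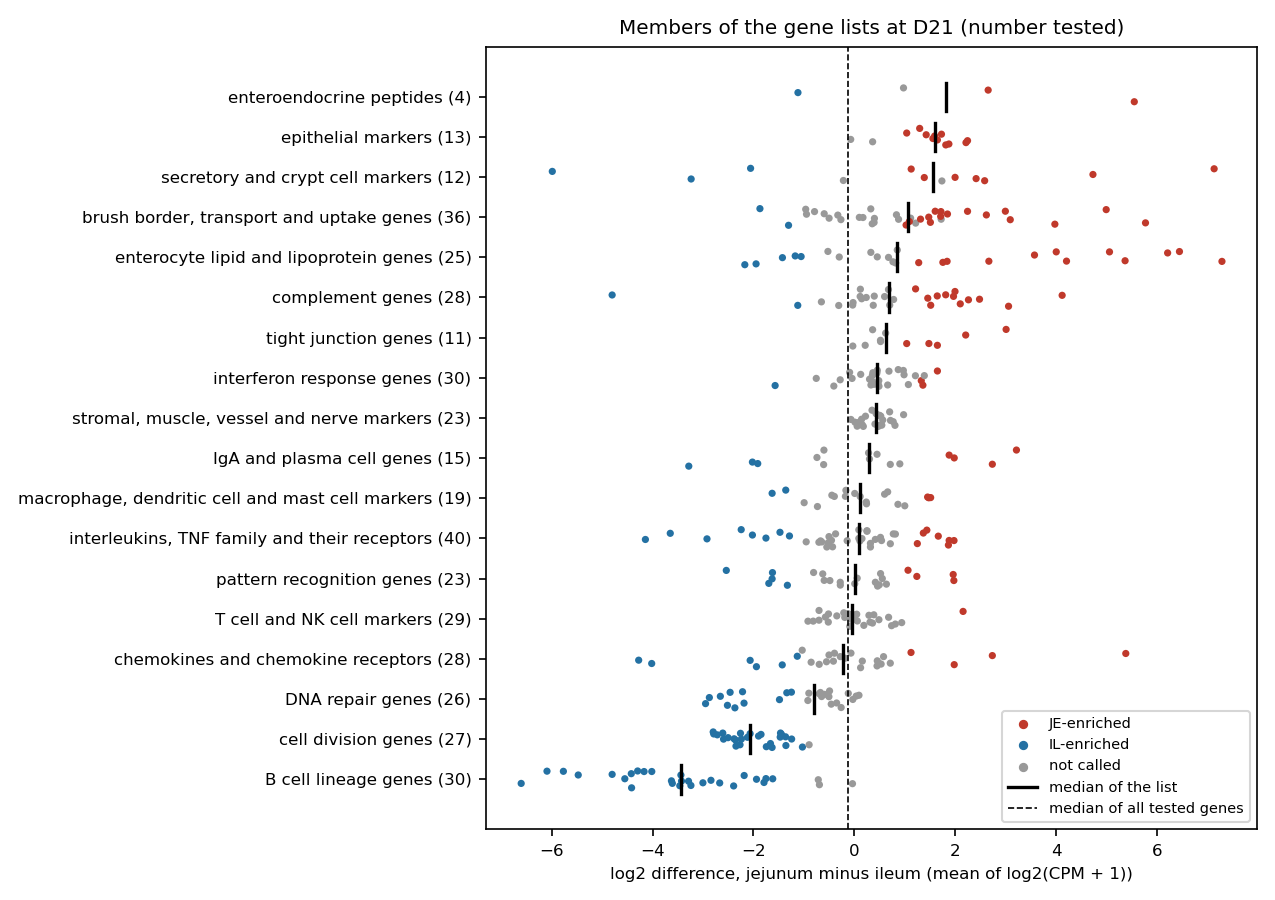
Each point is 1 tested member of a gene list, placed by its log2 difference between jejunum and ileum at D21 (horizontal axis, mean of log2(CPM + 1)), red when JE-enriched, blue when IL-enriched and grey when not called. Black bars are the list medians, from -3.43 for B cell genes to 1.81 for the 4 enteroendocrine peptides, and the dashed line is the median of all tested genes, -0.12.

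Cell division genes were IL-enriched in 26 of 27 cases (96.3%, beside 14.7% of all tested genes), with none JE-enriched and a median of -2.07. CDC6, which licenses DNA replication, was at 10, 13, 10, 12 and 8 CPM in the jejunum and 81, 85, 92, 64 and 75 CPM in the ileum (-2.80, SE 0.14, FDR 3.48e-08). NUSAP1, a spindle protein, was at 19, 23, 21, 23 and 12 CPM against 158, 152, 163, 109 and 117 CPM (-2.79, SE 0.18, FDR 1.91e-07). The groups did not overlap for either gene. Without the 10 members of the leading block, 16 of 17 were IL-enriched. The summed level of the list was 812 to 1181 CPM in jejunum samples and 3431 to 4591 CPM in ileum samples, and in the ileum it was highest in calves 1 to 3, as were the summed B cell genes. The remaining member, PLK1, had a difference of -0.90 at FDR 0.00151, short of 2-fold.

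DNA repair genes were IL-enriched in 11 of 26 cases (42.3%, beside 14.7% of all tested genes) and JE-enriched in none (median -0.80). Without the 5 members of the leading block, 6 of 21 were IL-enriched. PARP1, a sensor of DNA breaks, was at 121, 160, 151, 143 and 107 CPM in the jejunum and 1138, 1197, 1172, 921 and 868 CPM in the ileum (-2.95, SE 0.14, FDR 2.34e-08). FANCD2, a repair protein of crosslinked DNA, was at 8, 12, 9, 12 and 6 CPM against 80, 81, 81, 62 and 65 CPM (-2.88, SE 0.18, FDR 1.23e-07). EXO1, BRCA1, BRCA2, BLM and ATM were IL-enriched too. No nucleotide excision repair gene of the ERCC family was called, and ERCC1, at 30.8 ± 3.42 CPM in the jejunum and 28.8 ± 2.59 CPM in the ileum, had a difference of 0.09.

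Of 15 IgA and plasma cell genes, 4 were JE-enriched and 3 IL-enriched (median 0.30). These were shares of 26.7% and 20%, beside 12.1% and 14.7% of all tested genes. Without the 3 members of the leading block, 3 and 1 of 12 were called. PIGR, the receptor that carries IgA into the lumen, was at 13975, 11898, 8965, 11096 and 7643 CPM in the jejunum and 1427, 688, 455, 2409 and 1698 CPM in the ileum (3.21, SE 0.40, FDR 2.55e-05). CCL25, the epithelial chemokine that draws gut-homing lymphocytes, was at 858, 864, 655, 701 and 712 CPM against 138, 75, 79, 139 and 156 CPM (2.74, SE 0.21, FDR 4.93e-07). TNFSF13, which encodes the plasma cell factor APRIL, was at 35, 34, 20, 17 and 19 CPM against 5, 6, 5, 6 and 7 CPM (1.88, SE 0.21, FDR 1.22e-05). All of these were higher in the jejunum of each calf, and the part of the epithelial share in them was not tested.

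IGJ, the J chain that joins IgA into dimers, was at 2232, 3194, 1194, 1416 and 1290 CPM in the jejunum and 875, 1043, 778, 1249 and 768 CPM in the ileum. The groups overlapped between calves although each calf was higher in the jejunum, and the difference of 0.90 (SE 0.26, FDR 0.0103) did not reach 2-fold. It passed after median-ratio scaling (1.06) and when jejunum sample 3, jejunum sample 5 or ileum sample 4 was left out (1.01 to 1.04). MZB1, a chaperone of antibody secretion, was at 59.4 ± 25.7 CPM against 45.6 ± 8.99 CPM and was not called. The IL-enriched members were FCAMR, a receptor for IgA and IgM that was at 9, 14, 12, 14 and 9 CPM against 84, 171, 165, 84 and 123 CPM (-3.28, SE 0.23), CD27 (-2.02, SE 0.23) and the transcription factor IRF4, which was at 10, 14, 13, 10 and 10 CPM against 54, 47, 39, 44 and 44 CPM (-1.92, SE 0.14). FCAMR and CD27 stand in the leading block of the study's table, and IRF4 does not.

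T cell and NK cell markers held few calls. Of 29 tested identifiers, 1 was JE-enriched (3.45%, beside 12.1% of all tested genes) and none IL-enriched. The median difference was -0.04 (0.11 after median-ratio scaling, so its sign depends on the scaling). At an unadjusted p below 0.05 there were 3 on the jejunum side and 6 on the ileum side. CD3E, a chain of the T cell receptor complex, was at 66, 136, 80, 80 and 55 CPM in the jejunum and 62, 71, 56, 85 and 78 CPM in the ileum (0.19, SE 0.21, FDR 0.458). The samples overlapped, and the jejunum of calf 2 was highest. CD3D, CD3G, CD247, CD2, CD5, CD6 and CD8A lay between -0.35 and 0.29. The granzyme genes GZMA (2 identifiers) and GZMB were at 0.74 to 0.94 and were not called.

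Of 19 macrophage, dendritic cell and mast cell markers, 3 were JE-enriched and 2 IL-enriched (median 0.11), shares of 15.8% and 10.5% beside 12.1% and 14.7% of all tested genes. CD14, the co-receptor for lipopolysaccharide, was at 35, 38, 41, 30 and 32 CPM in the jejunum and 109, 114, 96, 124 and 111 CPM in the ileum (-1.63, SE 0.11, FDR 2.17e-07). The lysosomal marker CD68 was at 39, 58, 49, 36 and 31 CPM against 124, 123, 95, 96 and 107 CPM (-1.36, SE 0.16, FDR 1.89e-05). Both regions were separate for these genes. The scavenger receptor CD163 stood at 28 ± 6.36 against 60 ± 25.1 CPM with overlapping samples and was not called. On the jejunum side the lectin CLEC10A was at 15, 23, 16, 14 and 12 CPM against 2, 6, 3, 9 and 7 CPM (1.51, SE 0.31), and CPA3, a mast cell protease, at 9, 6, 12, 6 and 4 CPM against 3, 2, 1, 1 and 3 CPM (1.47, SE 0.30). The scavenger receptor MSR1 was the remaining JE-enriched member. CD209 (1.00, FDR 0.00627) and C1QA (0.60, FDR 0.00539) were higher in the jejunum of all 5 calves but were not called. AIF1 (-0.40, FDR 0.0249) was higher in the ileum of all 5 and was not called either. CSF1R, C1QB and C1QC, at -0.18 to 0.24, were also not called. At FDR alone 6 members passed on the jejunum side and 5 on the ileum side.

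Of 23 identifiers of pattern recognition genes, 4 were JE-enriched and 5 IL-enriched (median 0.01). These shares, 17.4% and 21.7%, were near those of all tested genes (12.1% and 14.7%), and without the 4 members of the leading block 3 and 2 of 19 were called. TLR2, a receptor for lipoproteins, was at 6, 4, 10, 5 and 3 CPM in the jejunum and 16, 15, 21, 23 and 22 CPM in the ileum (-1.70, SE 0.25, FDR 9.7e-05). TLR4, the receptor for lipopolysaccharide, was at 7, 10, 16, 8 and 6 CPM against 26, 27, 29, 34 and 32 CPM (-1.62, SE 0.22, FDR 4.24e-05), and LY86, the partner of a related B cell receptor, at 11, 17, 9, 6 and 7 CPM against 61, 77, 73, 43 and 50 CPM (-2.54, SE 0.25, FDR 4.04e-06). Their values did not overlap, and calves 4 and 5 had the highest TLR4 in the ileum. TICAM1, an adaptor of TLR3 and TLR4, was on the jejunum side with 43, 38, 38, 49 and 52 CPM against 10, 7, 11, 14 and 11 CPM (1.97, SE 0.17, FDR 1.2e-06).

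NLRP3, an inflammasome sensor, overlapped between the regions, at 5, 6, 10, 9 and 23 CPM in the jejunum and 14, 12, 7, 44 and 25 CPM in the ileum (-0.81, SE 0.47, FDR 0.15), and it was IL-enriched when jejunum sample 5 was left out (-1.12, FDR 0.0449). The adaptor PYCARD is listed under 2 identifiers that went opposite ways. One was at 351, 309, 142, 166 and 107 CPM in the jejunum and 63, 46, 33, 48 and 62 CPM in the ileum (1.96, SE 0.31, FDR 0.000173), and the other was IL-enriched at 16.8 ± 4.21 against 43 ± 4.64 CPM. How the authors' counting divided reads between them was not examined, so both are uncertain. IL18, a cytokine released through inflammasomes, was at 25, 37, 33, 36 and 49 CPM against 27, 35, 35, 36 and 33 CPM (0.09, SE 0.16, FDR 0.651).

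Interferon response genes varied widely among the jejunum samples. Of 30, 3 were JE-enriched (10%) and 1 IL-enriched (3.33%), both below the shares of all tested genes (12.1% and 14.7%). A positive difference was found in 24 of them (median 0.45). CMPK2, an interferon-induced nucleotide kinase, was at 48, 104, 73, 162 and 55 CPM in the jejunum and 16, 29, 18, 34 and 33 CPM in the ileum (1.65, SE 0.32, FDR 0.000868), and IFITM3, which blocks virus entry, at 158, 195, 156, 252 and 58 CPM against 39, 57, 74, 73 and 50 CPM (1.36, SE 0.33, FDR 0.00368). ISG15, a ubiquitin-like protein induced by interferon, was at 114, 391, 181, 506 and 33 CPM in the jejunum and 29, 85, 84, 93 and 55 CPM in the ileum and was not called (FDR 0.0734). Calf 4 had the highest and calf 5 the lowest summed level in the jejunum, 7180 and 1474 CPM, and calf 4 also the highest in the ileum, 3139 CPM. The count of JE-enriched members rose from 3 to 6 with the calf as a block, to 7 after median-ratio scaling and to 8 without jejunum sample 5. IFI30, a lysosomal thiol reductase of antigen presenting cells, was the IL-enriched member, with 53, 78, 39, 50 and 48 CPM against 124, 185, 199, 136 and 154 CPM (-1.57, SE 0.18, FDR 1.51e-05).

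**Figure D4:**
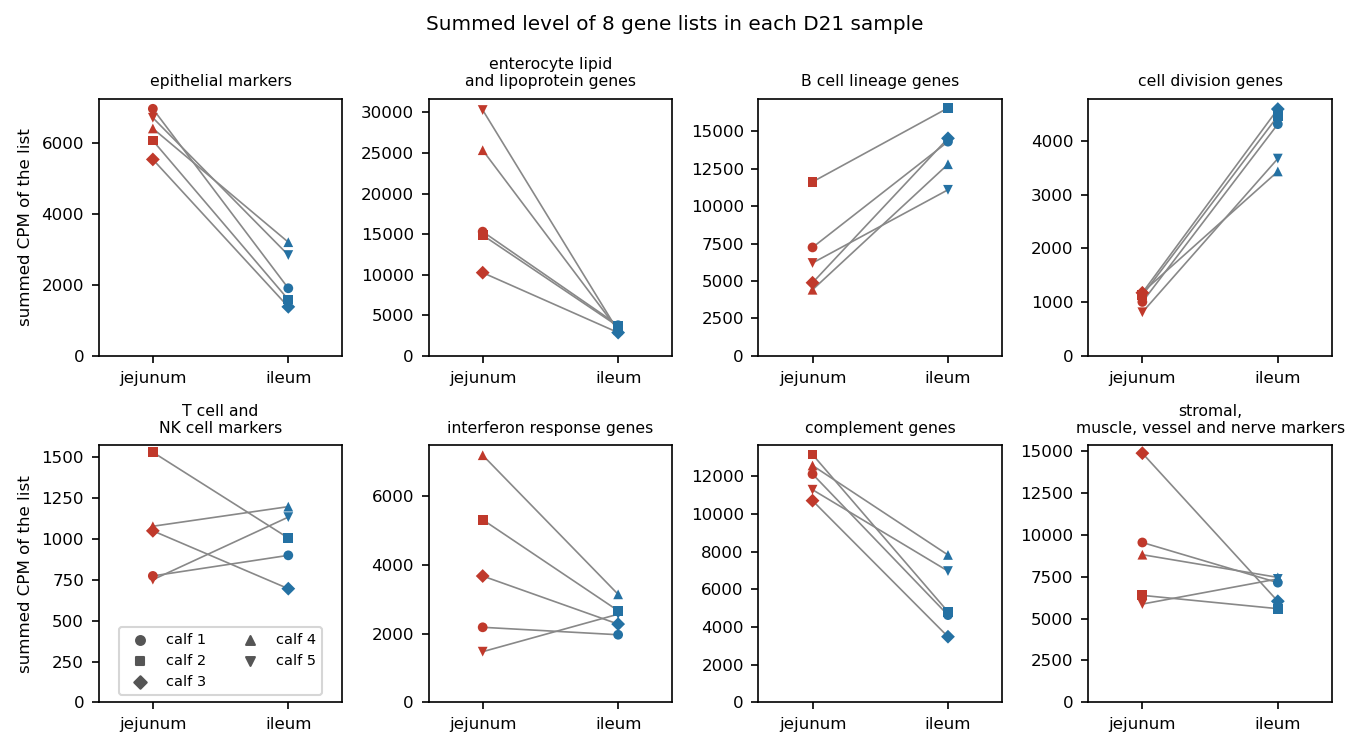
Summed CPM of all members of 8 gene lists (vertical axes, each starting at 0) in the jejunum (red) and ileum (blue) of each D21 calf, with a symbol per calf and a line joining the samples of 1 calf. The lines of epithelial, fat and complement genes fall and those of B cell and cell division genes rise in all 5 calves, whereas those of T cell, interferon and stromal genes run both ways.

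Complement genes were the immune list with the most JE-enriched members, 12 of 28 (42.9%) against 2 IL-enriched (7.14%), with a median of 0.69. The shares over all tested genes were 12.1% and 14.7%. Without the 5 members of the leading block, 8 of 23 were JE-enriched and 1 IL-enriched. C5, the precursor of the anaphylatoxin C5a, was at 665, 688, 522, 821 and 373 CPM in the jejunum and 31, 32, 18, 41 and 54 CPM in the ileum (4.12, SE 0.27, FDR 1.98e-07). The central component C3 stood at 4043, 4847, 3047, 3893 and 3515 CPM against 694, 756, 324, 2546 and 1860 CPM (JE-enriched, SE 0.46, FDR 0.00243), so that in the ileum calves 4 and 5 were again highest.

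JE-enriched members came from several arms of the cascade: CFB, CFD and CFP of the alternative pathway, C2 of the classical and lectin pathways, C6, C8G and C9 of the terminal complex, and the regulators CFI and C4BPA. The initiators of the classical pathway, C1QA, C1QB, C1QC, C1R and C1S, were not called and lay between 0.11 and 0.60. On the ileum side were CR2, already given with the B cells, and CD55, which protects cells from complement and was at 8, 4, 7, 6 and 5 CPM against 11, 14, 11, 18 and 17 CPM (-1.12, SE 0.20, FDR 0.000435). CD55 was no longer past 2-fold after median-ratio scaling (-0.98). C5, C6 and CFI had larger differences than any epithelial marker.

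Among 28 chemokines and their receptors, 4 were JE-enriched and 6 IL-enriched (median -0.23). These shares, 14.3% and 21.4%, were near those of all tested genes (12.1% and 14.7%), and without the 3 members of the leading block 3 and 4 of 25 were called. CXCL13, which draws B cells into follicles, was at 3, 13, 6, 13 and 9 CPM in the jejunum and 114, 149, 225, 187 and 204 CPM in the ileum (-4.28, SE 0.33, FDR 5.16e-07). CXCR4, the receptor that places dividing B cells within germinal centres, was at 19, 16, 19, 18 and 12 CPM against 334, 347, 326, 221 and 221 CPM (-4.02, SE 0.17, FDR 1.34e-08). CCR7 and CCL19, a receptor and ligand of lymphocyte homing, and CXCL12, the ligand of CXCR4, were IL-enriched as well. CCL20, which draws lymphocytes to the epithelium over patches, was IL-enriched at FDR 0.0464 with overlapping values of 1, 5, 8, 1 and 22 CPM against 13, 11, 14, 13 and 19 CPM. On the jejunum side, besides CCL25, the mucosal chemokine CXCL17 was at 59, 51, 44, 29 and 59 CPM against 1, 0, 0, 0 and 0 CPM (FDR 2.34e-08), CCL28 at 7 ± 1.41 against 1 ± 0 CPM, and CXCL14 at 158 ± 77.6 against 67.4 ± 14 CPM.

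Of 40 interleukins, TNF family members and their receptors, 7 were JE-enriched and 8 IL-enriched (median 0.09). These shares, 17.5% and 20%, were near those of all tested genes (12.1% and 14.7%), and without the 5 members of the leading block 6 and 4 of 35 were called. IL21R, the receptor for a helper T cell cytokine that drives B cells, was at 6, 17, 12, 9 and 8 CPM in the jejunum and 200, 220, 245, 140 and 164 CPM in the ileum (-4.14, SE 0.24, FDR 7.95e-08), and TNFSF8, the CD30 ligand, at 3, 6, 4, 5 and 3 CPM against 74, 75, 59, 51 and 58 CPM (-3.65, SE 0.18, FDR 3.15e-08). The lymphotoxin gene LTB, which maintains lymphoid tissue, stood at 25 ± 5.7 against 196 ± 39.5 CPM. Among the JE-enriched members, the interleukin 17 receptor chain IL17RC was at 83, 68, 76, 75 and 61 CPM against 16, 12, 16, 26 and 21 CPM (1.98, SE 0.18, FDR 2.04e-06) and the interleukin 22 receptor IL22RA1 at 109 ± 28.8 against 46.6 ± 16.7 CPM. The 8 IL-enriched genes were IL21R, TNFSF8, LTB, IL2RA, CD27, CD40, IL2RG and IL16. CD40 is itself on the B cell list, so those lists are not separate, and the part of the B cell share in these genes was not tested.

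Stromal, muscle, vessel and nerve markers were not called in either direction: of 23, 0 were JE-enriched and 0 IL-enriched in the limma test, and 22 had a positive difference (median 0.43). At FDR alone 8 passed on the jejunum side, and 9 reached an unadjusted p below 0.05. COL3A1, a fibrillar collagen, was at 2943, 1831, 3880, 2477 and 1522 CPM in the jejunum and 2224, 1734, 1627, 2312 and 2526 CPM in the ileum (0.22, SE 0.24, FDR 0.449). COL1A1, its partner in connective tissue, was at 1939, 997, 2814, 1477 and 710 CPM against 898, 743, 712, 1030 and 972 CPM (0.72, SE 0.31, FDR 0.0634). The jejunum of calf 3 held the most of both, and its summed level of the list, 14852 CPM, was above the 5861 to 9530 CPM of the other four jejunum samples and the 5586 to 7451 CPM of the ileum.

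The regional difference at D21 was then set beside those at D7 and D42, in other calves. Of the 1690 genes JE-enriched at D21, 1682 had a positive difference at D7 and 1674 at D42, and of the 2051 IL-enriched genes 2049 and 2050 had a negative one. Fewer were called again: 1244 JE-enriched genes at D7 and 957 at D42, and 1890 and 1430 IL-enriched genes. At all of D7, D21 and D42, 859 genes were JE-enriched and 1406 IL-enriched. The agreement of sign over all tested genes was not counted. No gene JE-enriched at D21 was IL-enriched at another of these ages, nor the reverse. The ileum sample of calf 1 at D42 did not look like the other ileum samples: it held 4 CPM of VPREB3, 1 of GP2 and 38 of IGJ, where the other four of that age held at least 153, 246 and 685 CPM. Without it the D42 counts of equal sign were 1686 and 2049, and those called again 1341 and 1700.

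A test of the difference between ages, as an interaction of region and age in limma, called 0 of 13942 genes for D21 against D7 (0.0%) and 0 for D21 against D42 (0.0%), with 479 and 1037 genes at an unadjusted p below 0.05, where 697 would be expected from the number of genes tested. The count against D42 was also 0 without the ileum sample of calf 1. With the calf as a block or after median-ratio scaling the counts were also 0. In simulated data the interaction test recovered 76% of 4-fold changes. Those data had independent samples, no aberrant sample, and changes only in genes that were not near the floor. Recovery in the real data was not measured and may be lower, above all against D42, where 1 ileum sample stood apart. A count of 0 therefore does not show that the regional difference was equal at the ages. The smallest FDR among called genes with a symbol against D7 belonged to IRF4 (0.274) and RBP4 (0.582). IRF4 had a jejunum mean of 4.8 ± 1.1 CPM at D7 and 11.4 ± 1.95 CPM at D21, while the ileum mean was 44.2 ± 6.57 and 45.6 ± 5.5 CPM, so the log2 difference went from -2.97 to -1.92 (interaction 1.06, SE 0.21). RBP4, the plasma carrier of vitamin A, was at 34.4 ± 7.6 against 11.8 ± 4.15 CPM at D7 and at 50.4 ± 13.9 against 6 ± 1.87 CPM at D21 (interaction 1.38, SE 0.32). Against D42 the smallest FDR, 0.621, was shared by many called genes, among them BLNK, an adaptor of the B cell receptor (-1.26, SE 0.69), the G protein subunit GNG12 (1.00, SE 0.53), CD79A, MS4A1 and GP2. These interactions include the ileum sample of calf 1 at D42, without which the D42 difference of BLNK went from -2.91 to -3.56, toward its D21 value of -4.17, and that of GNG12 from 0.36 to 0.65, toward 1.36.

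IGJ differed in sign between the ages, but its interactions did not pass the FDR over all tested genes. Its jejunum minus ileum difference was -0.57 at D7, 0.90 at D21 and 2.32 at D42 (1.42 without the ileum sample of calf 1), with a jejunum mean of 551, 1865 and 2852 CPM and an ileum mean of 785, 943 and 733 CPM. The interaction with D7 was 1.47 (SE 0.45, FDR 1) and that with D42 -1.42 (SE 0.99, FDR 0.64). GP2 went from -5.99 at D21 to -2.08 at D42 (-3.60 without that sample), with the jejunum of the 5 D42 calves at 14 to 255 CPM. The difference of APOA4 (6.50, 7.29 and 6.74 at D7, D21 and D42), C5 (3.54, 4.12 and 4.31) and PIGR (2.73, 3.21 and 3.55) moved by less than 1 on the log2 scale.

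**Figure D5:**
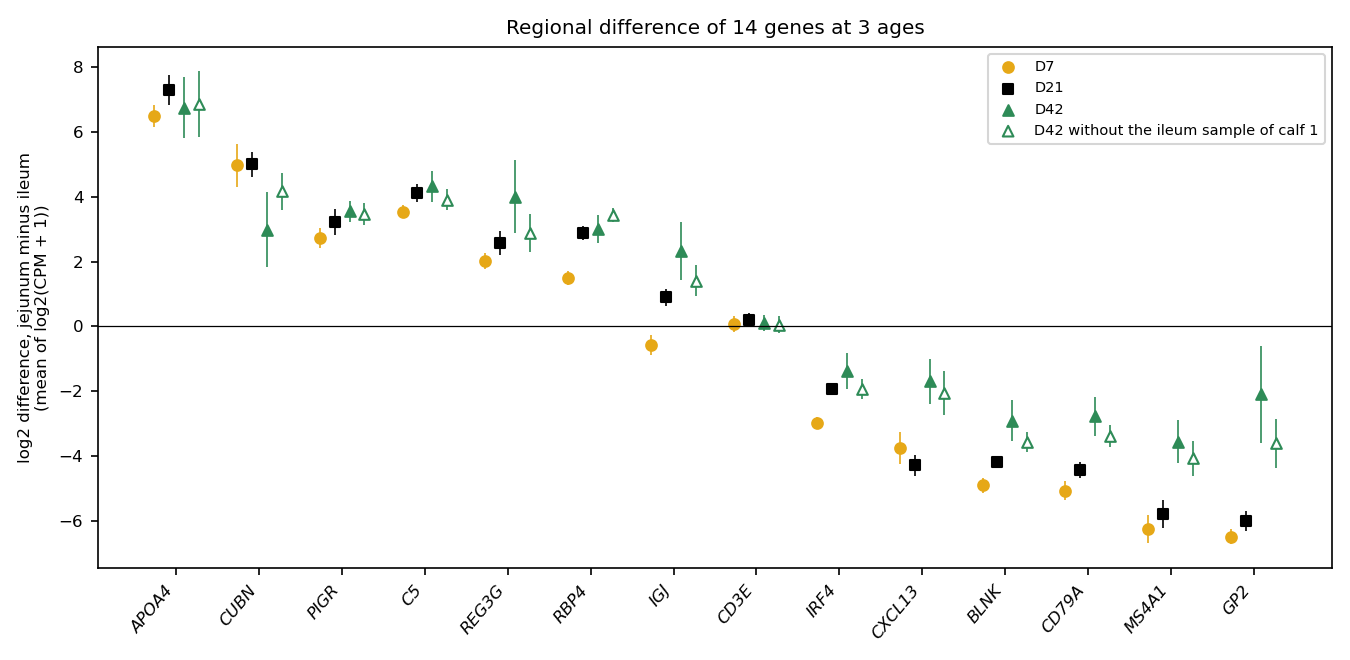
The log2 difference between jejunum and ileum (vertical axis, mean of log2(CPM + 1), with bars of 1 SE) is shown for 14 genes at D7, D21 and D42, 5 calves per age, with open triangles for D42 without the ileum sample of calf 1. IGJ was at -0.57, 0.90 and 2.32 on the 3 ages and GP2 at -6.47, -5.99 and -2.08, whereas APOA4, C5 and PIGR were positive and CD79A and MS4A1 negative at each age.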

How the data were processed

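The authors made 1 mRNA library per sample from total RNA of whole intestinal tissue and sequenced it. Processing used CASAVA 1.8, TopHat2 2.0.10, HTSeq and the UMD3.1 build, per the submitters' processing notes. Whether counting used strand is not given in the sources used here. The deposited values are a score in the sense that they are CPM which the authors rounded to whole numbers. The paper gives a mean read number over its libraries, but the read counts and depth of each library are unknown, so no count model was run.

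Of the 71 samples, the comparison used the jejunum and ileum samples at D21, and D7 and D42 samples served for the comparison of ages. All 17 distal jejunum files equal ileum files value by value and were not used, nor was the rumen. Genes with at least 2 CPM in 50% of the jejunum or of the ileum samples (13942 of 21510) were fitted with limma 3.58.1 in R 4.3.3 on log2(CPM + 1), with an empirical Bayes trend and Benjamini-Hochberg adjustment. Symbols came from the study's supplementary tables, 1279 of them from a list of immune and related genes whose first 141 rows are mostly called genes. The other 497 came from a list chosen for change between ages. Of these 497, 24.1% were JE-enriched and 11.9% IL-enriched, beside 12.1% and 14.7% of all tested genes. Counts given without the leading block still include them.

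The genes named were the 10 with the largest difference in each direction without overlap, the 2 largest called members of each of 18 lists in each direction (the 2 highest members where none was called), 12 genes the study discusses, the 2 largest identifiers without symbol in each direction, and the 2 called genes with the smallest interaction FDR per age. Other members were named after their values were seen, and some genes that the rule names are not reported here. Members and lists were chosen with earlier results of these data known.

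The study states that a sample number is the animal. Within calves, deviations from the group means correlated at -0.064, 0.378, -0.043, 0.247 and 0.185. Alternatives were the filter, the pseudocount (0.1 and 5), median-ratio scaling, all ages in 1 fit, the calf as a block, FDR alone and leaving out each sample. The limma script was tested on simulated data, where it recovered 97.5% of 4-fold regional differences and 76% of 4-fold changes in the interaction of region and age. The simulated samples were independent, none was aberrant, and the changes lay in genes that were not near the floor, so recovery in the real data may be lower.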

Additional observations from a re-analysis of the deposited data

Results flagged for a closer look

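Of 156 groups of 5 values checked for named genes at D21, 11 held a sample set apart from the other four by Dixon's criterion, of which 9 are given here, and chance alone marks about 1 in 20 groups. In the jejunum these were calf 5 for UGT1A1 (2365 CPM, the others 224 to 291), ABCC2 (549 CPM, the others 19 to 52) and NLRP3 (23 CPM, the others 5 to 10), and calf 3 for CCK (118 CPM, the others 31 to 43). In the ileum they were calf 1 for APOA4 (90 CPM, the others 17 to 33) and CXCL17 (1 CPM, the others 0), calf 4 for DUOX2 (595 CPM, the others 7 to 167) and ENSBTAG00000015170 (1 CPM, the others 0), and calf 5 for CLDN15 (32 CPM, the others 22 to 24). NLRP3 was the gene of those given whose call changed without that sample.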

How the results depend on the processing

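The 1690 JE-enriched and 2051 IL-enriched genes became 3514 and 5138 at FDR alone, 1724 and 2095 without a filter, 1706 and 2062 with the filter in the D21 samples, 1892 and 2249 with a pseudocount of 0.1, 1157 and 1477 with a pseudocount of 5, 2089 and 1689 after median-ratio scaling, and 1656 and 2037 with all ages in 1 fit. Leaving out 1 sample gave 1559 to 1835 and 1912 to 2182, and 0 to 1 genes for the interaction with D7 (1 gene without ileum sample 5 of D7). A fit with each calf as a replicate block gave 1708 and 2053, and beyond the interferon list the block changed no count by over 1.5 times. Members called in all lists together stood at 85 JE-enriched and 98 IL-enriched, and between 79 and 121 and between 92 and 135 under the alternatives. When 1 sample was left out, the difference of IL18 ranged from -0.0275 (without jejunum sample 5) to 0.208 and that of CD3E from -0.00374 (without jejunum sample 2) to 0.319, so both changed sign, and neither was called. CPA3, GNG12, CD55 and GCG lost their call with a pseudocount of 5. The T cell list reached 3 JE-enriched or 2 IL-enriched members when 1 sample was left out, and the stromal list 1 JE-enriched. At FDR alone 20 DNA repair genes were higher in the ileum. Rounding to whole CPM limits genes of a few CPM, and the depth of each library is unknown.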
